A study of Mus musculus with 15 samples.

Results

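RNA from the thalamus of cocaine-treated mice labelled Maged1 cKO was compared with RNA from cocaine-treated mice labelled control. The comparison holds the 2 cKO cocaine and 4 control cocaine libraries with a deposited table, 6 of the 14 libraries with a table and of the 15 samples in the series, chosen by treatment and genotype label. One further cKO cocaine sample was not analysed here. The mice were adult males of 2-4 months. Those labelled cKO carried a floxed Maged1 and Cre under the vGluT2 promoter, so that excision is limited to glutamatergic Vglut2 cells of any region and to the time when the driver is active. Control mice carried the floxed Maged1 without excision (genotype tag Maged1 Loxp), although the sample titles call them Maged1 WT. All 6 mice received saline for 3 days and then cocaine at 20 mg/kg, intraperitoneally, for 5 days, and each library came from whole unsorted thalamus. The saline libraries (4 labelled control, 4 labelled cKO) followed the same schedule with vehicle alone. They add to the estimate of the spread and serve as the background. Title and genotype tag disagree in 4 of the saline libraries and agree in all 6 cocaine libraries.

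Maged1 (melanoma antigen family D1) is an X-linked gene of the MAGE family, whose proteins bind ubiquitin ligases and deubiquitinases. One partner is Usp7, an enzyme that removes ubiquitin. Monoubiquitin on histone H2A is placed by Polycomb repressive complex 1 and read by complex 2, and both are linked to gene silencing. The thalamus is rich in Vglut2 neurons, borders the habenula, the hypothalamus and the ciliated ependyma of the third ventricle, and is capped by the GABAergic reticular nucleus.

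Levels are given as scaled TPM, the deposited TPM (transcript abundance per library total, corrected for transcript length) divided by a trimmed-mean (TMM) factor per library. Library depth is unknown from such values. Differences are labelled cKO minus labelled control on the log2(scaled TPM + 0.5) scale, which understates changes of low genes. They are given with the standard error of limma. Calls required a p-value under 0.05 after Benjamini-Hochberg adjustment together with a log2 difference of at least 0.5 in either direction. Of 13471 tested genes, 2 were called higher (0.0148%) and 3 lower (0.0223%) in the libraries labelled cKO. With no fold minimum 8 genes had an adjusted p under 0.05 (0.0594%), and 1597 had an unadjusted p under 0.05 (11.9%), 682 of them higher and 915 lower. Without cKO replicate 2, 0 genes were called (limma), with 1448 at an unadjusted p under 0.05. Both cKO libraries lay above all 4 controls for 1059 genes (7.86%) and below all 4 for 1292 (9.59%). These shares are the background for every count of list members above or below all controls. Differences above 0 were found for 48.4% of the genes and the median over all genes was -0.005 (0.02 with TPM as deposited).

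Among the 6 libraries, control replicates 1 and 4 stood apart. The first principal component (26.1% of the variance) placed control replicate 4 at one end and cKO replicate 1 at the other, and the second (23.2%) separated control replicate 1. Their marker genes differed as well. Tac2, a tachykinin gene of the medial habenula, was at 76.6, 23.9, 25.2 and 1.09 scaled TPM in control replicates 1 to 4 and at 25.6 and 10.5 in the cKO libraries. Gad1, which encodes the GABA-synthesizing enzyme GAD67, was at 4.68 in control replicate 1 against 43.0, 51.5 and 34.8 in the other controls and 43.9 and 40.5 in cKO. Replicate 1 was thus high in habenular and low in GABAergic markers, and replicate 4 was low in habenular ones. The thalamic list (22 tested genes such as Tcf7l2, Gbx2 and Lef1) was detected throughout, with summed levels of 638 to 818 scaled TPM in the controls and 738 and 808 in cKO. In such bulk tissue, fewer cells of a type and less RNA per cell cannot be told apart.

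The deleted gene was examined first. Maged1 (ENSMUSG00000025151.16) is on the minus strand of chromosome X (GRCm38, 94535474 to 94542143). In the libraries labelled control cocaine it was at 58.5, 87.7, 77.3 and 70.7 scaled TPM, and in those labelled cKO cocaine at 154 and 174. The groups did not overlap, and the level of the deleted gene ran opposite to the labels. The log2 difference was 1.16 (standard error 0.13, adjusted p = 0.00356, limma), or 2.24-fold. An exact two-sided permutation test gave p = 0.133, the smallest that 2 libraries against 4 allow. For comparison, the saline libraries spanned 149.9 to 167.2 scaled TPM in control and 64.6 to 77.4 in cKO, so that the cocaine libraries labelled cKO lay near the saline controls and those labelled control near saline cKO. As deposited, without scaling between treatments, the cKO cocaine values were 140.4 and 144.3 TPM against 163.5 to 188.6 in control saline. The log2 difference after saline was -1.11, and the difference between treatments was 2.28 (adjusted p = 5.53e-05, limma). Excision leaves part of the transcript, and whole tissue holds cells outside the Cre lineage, so gene-level values above 0 are possible after excision. The adjusted p was 0.0822 without cKO replicate 2, 0.156 in the 6 cocaine libraries alone and 0.427 with saline libraries grouped by tag (limma). Saline replicates 3 and 4 titled control but tagged cKO were at 149.9 and 151.3 scaled TPM. Saline replicates 1 and 2 titled cKO but tagged Loxp were at 77.4 and 76.6. Grouping by tag thus put libraries of high and low Maged1 into the same saline group. The labels are kept below, and each direction between genotypes rests on them.

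**Figure D1:**
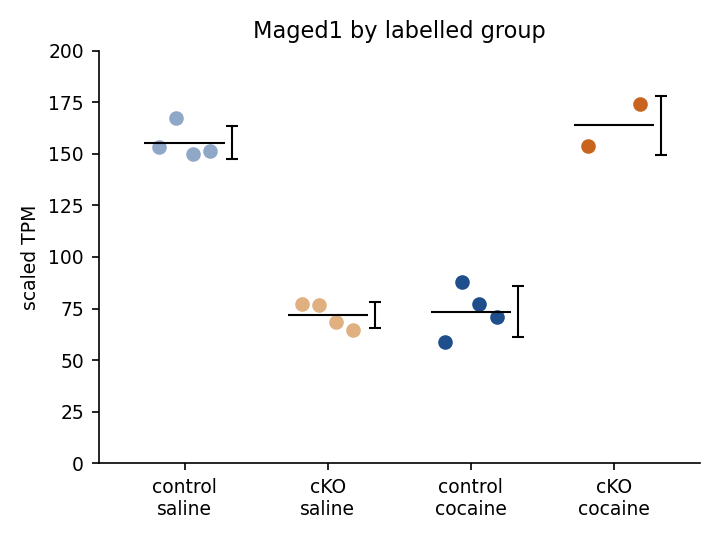
Maged1 in scaled TPM (vertical axis) for each library of the 4 labelled groups; points are libraries, horizontal lines group means and bars SD (n = 4, or 2 for cKO cocaine). The 2 libraries labelled cKO cocaine sit at 154 and 174, above all libraries labelled control cocaine, which is the reverse of the order after saline.

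Genes around Maged1 on chromosome X had smaller differences. Of 19 other tested genes within 2 Mb, 0 had an adjusted p under 0.05 (limma) and 3 had an unadjusted p under 0.05, with log2 differences between -0.24 and 0.39. Of 8 tested MAGE family genes, Maged1 alone was called and alone separated the groups. Maged2, its nearest relative, was at 22.2, 23.6, 23.2 and 22.0 scaled TPM in control and 20.5 and 22.3 in cKO. Ndn (necdin), another MAGE gene of neurons, spanned 62.5 to 120 in control and was at 82.1 and 109 in cKO. Slc17a6, the Vglut2 gene whose promoter drives Cre, was at 87.1, 69.6, 73.5 and 92.8 in control and 84.9 and 90.6 in cKO, with a log2 difference of 0.13 (standard error 0.16, adjusted p = 0.80, limma). The cKO values of the Cre driver gene lay within the control range.

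Genes of the ubiquitin and Polycomb machinery showed no called difference. Usp7 was at 19.4, 19.2, 18.9 and 18.4 scaled TPM in control and at 18.6 and 18.4 in cKO. The log2 difference was -0.03 (standard error 0.04, adjusted p = 0.81, limma). The cKO values lay at the low end of the control range. The H2A deubiquitinase list also holds cofactors such as Atxn7l3 and genes that are not deubiquitinases, such as Mdm2, Trp53 and Dnmt1. Of its 14 tested members 0 were called and the median difference was 0.05. The 2 at an unadjusted p under 0.05 (limma) were Atxn7l3 (-0.25) and Dnmt1 (0.24). Among 22 genes of Polycomb complex 1 the median was -0.03 (0.001 with TPM as deposited) with 0 called, and among 12 of complex 2 it was 0.04 with 0 called, with 3 unadjusted p-values under 0.05 in each. Single members without overlap had small differences. Ring1, an E3 ligase of complex 1, was at 8.24 to 8.97 in control and 9.74 and 10.04 in cKO (0.20, standard error 0.07). Ezh2, the methyltransferase of complex 2, was at 1.89 to 2.17 in control and 1.57 and 1.61 in cKO (-0.27), while its paralogue Ezh1 was at 8.90 to 9.21 and at 9.93 and 10.5 (0.17). Adjusted p-values were 0.236 or above in these 3 lists, and 3 of 48 members lay above all controls and 4 below (7.86% and 9.59% of all genes).

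The largest differences past the threshold were in 2 small nucleolar RNAs. Both belong to the H/ACA class, which guides pseudouridylation of ribosomal or other RNAs and ends in an ACA box. Their sequences (GENCODE M21, GRCm38) are shown because they account for most of the genes called lower, with the ACA box 3 bases from the 3′ end in capitals. Snora5c is on chromosome 11, 6620319 to 6620454, minus strand, 136 bases, within Tbrg4. Snora3 is on chromosome 7, 109520120 to 109520251, plus strand, 132 bases, within Rpl27a.
Snora5c: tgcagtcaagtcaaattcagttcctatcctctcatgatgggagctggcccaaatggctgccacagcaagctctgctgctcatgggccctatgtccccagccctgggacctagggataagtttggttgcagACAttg
Snora3: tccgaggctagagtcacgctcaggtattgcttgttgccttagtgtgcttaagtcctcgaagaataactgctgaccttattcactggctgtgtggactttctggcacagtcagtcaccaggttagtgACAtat

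Snora5c was at 24.8, 57.8, 159 and 81.9 scaled TPM in the control cocaine libraries and was listed at 0 in both labelled cKO (adjusted p = 0.00119, limma). Snora3 was at 11.8, 18.08, 22.86 and 14.03 in control and was listed at 0 in both cKO libraries (adjusted p = 0.00796, limma). No fold is given against values of 0. After saline the 2 RNAs were unlike each other. Snora5c was at 0 to 0.936 in the 4 control libraries and 0.371 to 2.87 in the 4 cKO libraries, so that its high values were found, among the 14 libraries, only in the control cocaine group. Snora3 spanned 12.03 to 22.87 in the 4 saline controls and 4.84 to 46.3 in the 4 saline cKO libraries, so that both cKO cocaine libraries lay below all others. The genes that contain them overlapped between the groups. Tbrg4 was at 9.11 to 9.88 in control and 8.99 and 9.62 in cKO (log2 difference -0.01), and Rpl27a, a ribosomal protein gene, at 80.9 to 92.4 and at 89.2 and 91.5 (0.06). RNAs this short approach the length of a library fragment, which makes their TPM estimates uncertain.

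Across the class the differences went both ways. Of 57 tested small nucleolar and Cajal body RNAs, 2 were called lower and 0 higher, and the median was -0.19. An unadjusted p under 0.05 was found for 18 of the 57 (limma), against 11.9% of all genes. Of the 57, 7 lay above all 4 controls and 7 below (7.86% and 9.59% of all genes). Scarna2 was at 63.5, 16.3, 36.1 and 50.9 in control and 11.24 and 12.04 in cKO, and was listed at 0 in every saline library. By contrast, Snora31 was at 8.73 and 13.4 in control replicates 1 and 2, listed at 0 in replicates 3 and 4, and at 36.45 and 40.99 in cKO. It spanned 15.9 to 49.2 in the saline libraries. Neither Scarna2 nor Snora31 passed the threshold. Of 151 tested microRNA precursor or host genes 0 were called (17 at an unadjusted p under 0.05) and the median was 0.00. Of the 151, 10 lay above all controls and 2 below (7.86% and 9.59% of all genes). A fit of the 6 cocaine libraries alone called 8 genes higher, among them Mir345, Mir488, Mir1931, Mir6352, Snora69 and Snora75. All 6 were listed at 0 in every control cocaine library. Mir345 was at 26.7 and 67.3 scaled TPM and Mir488 at 11.0 and 12.5 in cKO, with adjusted p-values of 0.168 and 0.164 in the fit of all libraries (limma). Mir6352 and Snora75 had the same values as each other, 7.35 and 8.21. After saline each of the 6 was listed at 0 in some libraries of a group and above 0 in others. Mir345 was at 29.3, 10.6, 0 and 23.0 in control saline, and Snora75 at 15.6, 19.1, 22.9 and 0 in cKO saline. The mature forms of the 2 microRNAs at the highest levels among these are shown from RefSeq (GRCm38.p6) with the seed, bases 2 to 8, in capitals. The 4 seeds differ from each other. The gene-level value covers the precursor or host gene, so it does not measure the mature forms or tell the arms apart.
mmu-miR-345-5p: gCUGACCCcuaguccagugcuu
mmu-miR-345-3p: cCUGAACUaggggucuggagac
mmu-miR-488-5p: cCCAGAUAauagcacucucaa
mmu-miR-488-3p: uUGAAAGGcuguuucuugguc

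The other genes past the adjusted threshold were longer, and their differences were modest. Nab2, a corepressor of the Egr transcription factors, was at 4.61, 5.14, 4.83 and 5.00 scaled TPM in control and 3.17 and 2.88 in cKO, a log2 difference of -0.62 (standard error 0.09, adjusted p = 0.0234, limma). Thbs2, a secreted thrombospondin of the matrix, was low, at 1.01, 1.02, 0.83 and 0.95 in control and 1.84 and 1.78 in cKO (0.67, standard error 0.11, adjusted p = 0.0479, limma). Its call was kept in 6 of 25 alternative fits. Neither gene overlapped between the groups. Below the fold minimum, Hint3, a nucleotide hydrolase of the histidine triad family, was at 18.9, 18.6, 17.7 and 18.8 in control and 14.6 and 12.8 in cKO (-0.42, adjusted p = 0.00953, limma). The uncharacterized 1500009L16Rik was at 8.74 to 9.51 in control and 6.57 and 6.41 in cKO (-0.46, adjusted p = 0.0479, limma). Tppp3, a tubulin-binding protein gene expressed in ciliated cells among others, was at 30.01, 30.9, 34.37 and 30.14 in control and 45.75 and 41.11 in cKO (0.46, standard error 0.07, adjusted p = 0.0380, limma). All 3 separated the groups completely with little spread within them.

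**Figure D2:**
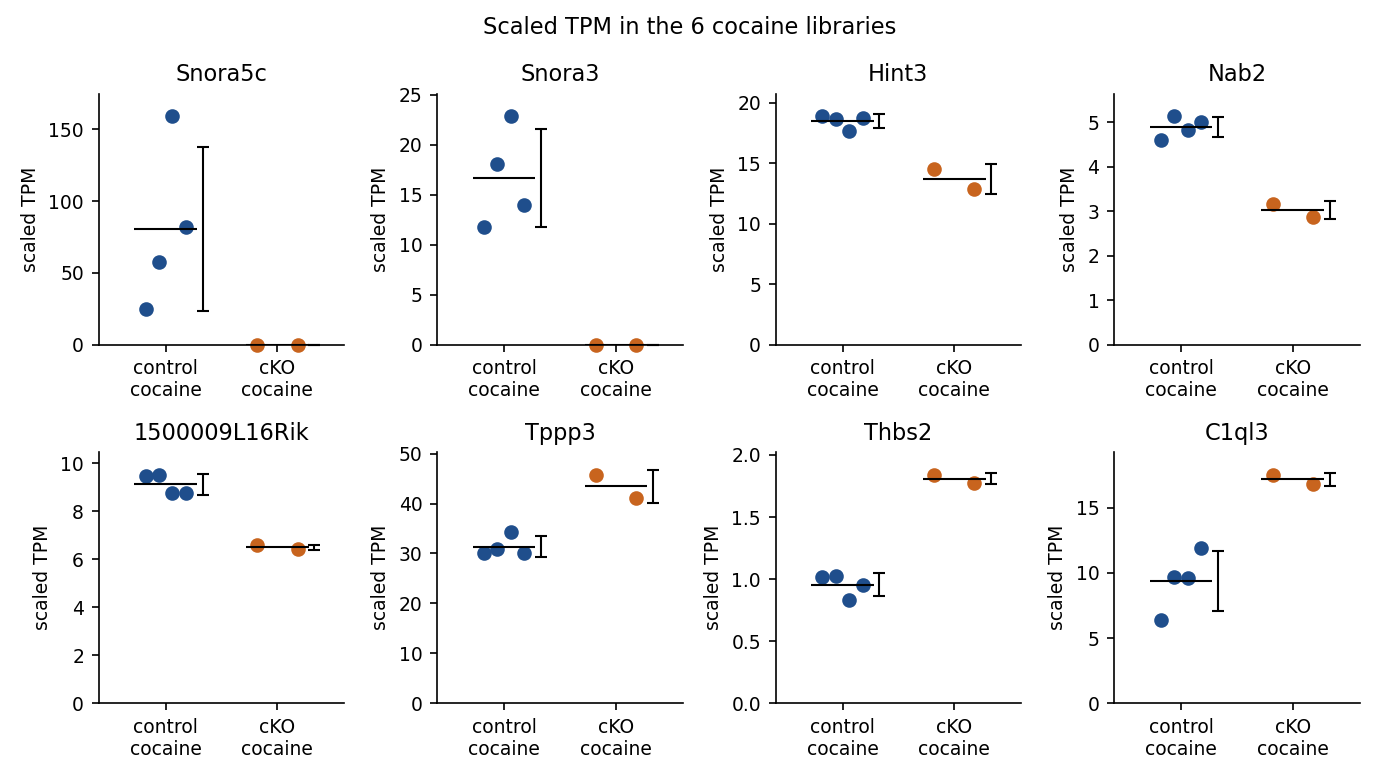
Scaled TPM (vertical axes, from 0) in the 4 libraries labelled control cocaine and the 2 labelled cKO cocaine for the 7 genes other than Maged1 with an adjusted p under 0.05, and for C1ql3, which did not reach it (adjusted p = 0.278). Points are libraries, lines means and bars SD; the groups do not overlap in any of the 8 panels, and Snora5c and Snora3 are at 0 in both cKO libraries.

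Other genes separated the groups without being called. Efna3, an ephrin ligand, was at 9.045 to 10.75 in control and 6.998 and 6.576 in cKO (-0.52, adjusted p = 0.0504, limma). Txnip, whose product binds thioredoxin, was at 3.20 to 3.82 in control and 7.57 and 5.94 in cKO (0.87, adjusted p = 0.0743, limma). C1ql3, a secreted C1q-like protein of synapses, was at 6.35, 9.72, 9.65 and 11.95 in control and at 17.5 and 16.8 in cKO (0.87, standard error 0.27, adjusted p = 0.278, limma). Of these 3, C1ql3 lay farthest from the threshold.

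Neuropeptide genes of the hypothalamus, the region below the thalamus, differed widely between the libraries. Oxt, the oxytocin precursor, was listed at 0 in control replicates 1, 2 and 4 and at 0.233 scaled TPM in replicate 3, against 8.82 and 52.8 in the cKO libraries (adjusted p = 0.0817, limma). Cartpt, a neuropeptide precursor known to respond to cocaine in other regions, was at 4.33, 5.46, 4.29 and 2.28 in control and at 29.8 and 35.8 in cKO. Its log2 difference of 2.91 (standard error 0.62) had an adjusted p of 0.153 in the fit of all libraries and of 0.0407 in that of the 6 cocaine libraries (limma). Trh spanned 0.75 to 2.14 in control and was at 2.82 and 2.95 in cKO, and Gal (galanin) 1.08 to 2.56 and 3.66 and 4.37. Avp (vasopressin) overlapped, with 0.467, 0.471, 2.12 and 0.731 in control and 1.11 and 4.08 in cKO. Pmch overlapped too, at 0.232, 96.8, 64.6 and 2.06 in control and 17.4 and 9.77 in cKO. Hcrt went the other way, at 0, 26.5, 14.4 and 0.39 in control and 0.338 and 0 in cKO (-2.5, standard error 2.1). Of the 14 tested genes of the hypothalamic list 0 were called (5 at an unadjusted p under 0.05). Of the 14, 5 lay above all controls and 0 below (7.86% and 9.59% of all genes). In this list 11 were above 0 (48.4% of all genes), with a median of 0.46 (-0.88 after saline). The median was 0.29 without control replicate 1 and 0.32 without replicate 4. The summed level of the list ranged from 28.5 to 164 scaled TPM in control and was 98.5 and 140 in cKO, so the summed levels overlapped. The mean log2 level over the 14 genes, in which abundant members weigh no more than the others, did not overlap, at 0.51 to 1.78 in control and 1.83 and 2.07 in cKO. After saline the order was the reverse, at 2.39 to 3.79 in control and 1.06 to 2.28 in cKO. The part of hypothalamic tissue in these differences was not tested.

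Of 25 tested receptors for neuropeptides 0 were called (5 at an unadjusted p under 0.05). Of the 25, 6 lay above all controls and 1 below (7.86% and 9.59% of all genes), with a median of 0.19 (0.09 with quantile normalization). Galr1, a galanin receptor, was at 1.11, 1.77, 1.09 and 1.42 in control and 2.35 and 2.65 in cKO (0.71, adjusted p = 0.222, limma). Oprk1, the kappa opioid receptor, was at 1.16 to 1.58 and at 2.14 and 1.72 (0.39). Sstr3, a somatostatin receptor of primary cilia, lay below all controls, which were at 3.48 to 3.69, with 2.30 and 2.73 in cKO (-0.45, adjusted p = 0.137, limma).

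Genes of motile cilia mark the ependymal lining of the ventricle in this region. Of 41 tested list members 40 had a difference above 0, with a median of 0.54 against -0.005 over all genes. Among them 0 were called with the fold minimum, although Tppp3 passed the adjusted threshold, and 11 had an unadjusted p under 0.05. In all, 11 lay above all 4 controls and 0 below (7.86% and 9.59% of all genes). Rsph1, a radial spoke protein of the axoneme, was at 4.20, 3.28, 2.27 and 1.00 in control and 4.33 and 4.67 in cKO. Dnaaf3, which helps assemble dynein arms, was at 0.684, 0.48, 0.311 and 0.111 in control and 1.25 and 1.17 in cKO (0.98, standard error 0.26, adjusted p = 0.222, limma). Foxj1, the transcription factor of motile ciliogenesis, overlapped, at 6.84, 4.72, 5.15 and 2.39 in control and 8.25 and 5.96 in cKO. In these genes control replicate 1 was close to cKO and replicate 4 was lowest. Without replicate 1, 34 of 41 lay above the remaining controls (12.4% of all genes) and the median was 0.75. Without replicate 4, 11 lay above (11.2% of all genes) and the median was 0.34. The mean log2 level of the list was 1.36, 0.94, 0.80 and 0.07 in control and 1.49 and 1.26 in cKO, and 1.38 to 1.49 in the saline controls. After saline the median difference was -0.75, and 1 of 41 was above 0. Primary cilium transport genes, which nearly all cells use, had a median of 0.02 over 32 members.

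Regulatory factor X (RFX) proteins bind X-box motifs before many ciliary genes. The motif GTTNCC followed, after any 2 bases, by GG was searched on both strands from 250 bases before to 50 after each gene start (RefSeq, GRCm38.p6). It was found in 7.15% of 27025 gene symbols and in 7 of 36 tested list members with a promoter entry (19.4%). The first share covers all symbols with a promoter entry, tested or not, so the 2 sets are unlike. A match is a description of the sequence, not a bound site. The matches with 10 bases on each side, or up to the end of the window, are shown in the direction of the gene with the motif in capitals, since these genes belong to the ciliary list. Where the match is on the other strand, its reverse complement is in capitals. Of the 7 genes, 3 (Zmynd10, Spag6l and Odf3b) lay above all 4 controls, against 11 of 41 in the whole list (7.86% of all genes). A link between the motif and the differences was not tested. The windows are Tekt4 on chr17:25471424-25471453 (plus strand), Zmynd10 on chr9:107547294-107547323 (plus), Spag6l on chr16:16829314-16829339 (minus), Spef2 on chr15:9748841-9748870 (minus), Drc1 on chr5:30281368-30281397 (plus), Odf3b on chr15:89379308-89379337 (minus) and Pifo on chr3:106001498-106001527 (minus).
Tekt4: ccacctgtgtCCTGGGAAACaaactcatgt
Zmynd10: aagctccctcGTTTCCATGGcgacgacgac
Spag6l: gttgctgtcgGTTGCCCTGGagacgc
Spef2: ttagcaactgGTTGCCCTGGgcgacgggaa
Drc1: gactgctttcCCTTGGCAACggcttgttcc
Odf3b: cgcctcccatCCTGGGAAACtattgtttgt
Pifo: ccgcggttccGTTCCCTTGGcaacgtagta
In the 7 genes the log2 differences were -0.01 for Tekt4, 1.15 for Zmynd10, 0.27 for Spag6l, 0.45 for Spef2, 0.60 for Drc1, 0.83 for Odf3b and 0.35 for Pifo.

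Habenular and GABAergic markers varied more among the controls than between the labels. The 14 habenular genes had a median of 0.00, with 0 separating the groups, since control replicates 1 and 4 lay on either side of both cKO libraries. Their summed level was 253, 75.2, 87.4 and 18.4 scaled TPM in control and 98.5 and 48.3 in cKO. The median was 0.42 without replicate 1 and -0.57 without replicate 4. The 15 GABAergic and reticular genes had a median of 0.63, but 0 had an unadjusted p under 0.05 and the median was 0.19 without control replicate 1. Their summed level was 43.1 in that library, 206 to 274 in the other controls and 251 and 264 in cKO. The 8 choroid plexus genes had a median of 0.00. The 10 tested genes of cortex and hippocampus had a median of 0.31 (0.0083 after saline), with 0 called. Of these, 4 lay above all controls (Tbr1, Bhlhe22, Rasgrf2 and Wfs1, at 0.40 to 0.91 on the log2 scale) and 1 below (7.86% and 9.59% of all genes). The mean log2 level of the list overlapped, at 2.19 to 2.68 in control and 3.00 and 2.54 in cKO. The member below all controls was Slc17a7, the Vglut1 gene, at 82.2, 52.4, 54.1 and 52.6 in control and 47.6 and 28.7 in cKO (-0.67, adjusted p = 0.316, limma). Calb2 (calretinin), a marker of midline thalamic neurons, was at 111, 74.6, 66.2 and 71.4 in control and 128 and 129 in cKO (0.69, adjusted p = 0.332, limma). The thalamic list that holds it had a median of 0.02 over 22 genes, with 12 above 0. In that list 2 lay above all controls and 2 below (7.86% and 9.59% of all genes).

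**Figure D3:**
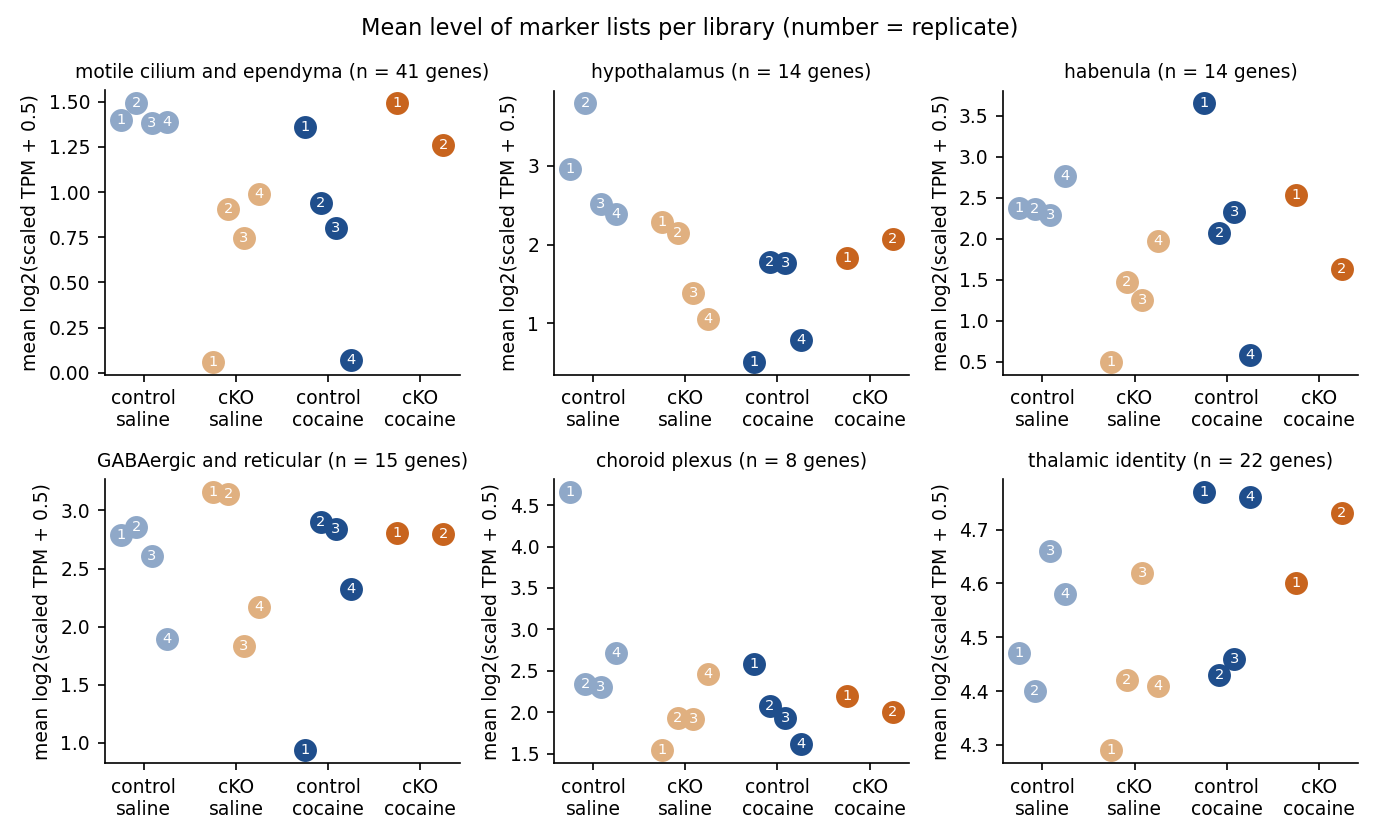
Mean log2(scaled TPM + 0.5) of 6 marker lists (vertical axes; number of tested genes in each title) in each library of the 4 labelled groups, with the replicate number in each point. Among the libraries labelled control cocaine, replicate 4 is lowest for ciliary (0.07) and habenular (0.59) genes and replicate 1 is highest for habenular (3.65) and lowest for GABAergic (0.93) genes, while the 2 cKO cocaine libraries lie within or just above the control range.

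Glial and vascular lists had medians near 0, at 0.02 for 15 astrocyte, -0.07 for 18 oligodendrocyte, 0.02 for 16 microglial and -0.03 for 18 endothelial and mural genes, with 0 called in each. In the last list 4 genes lay below all controls and 0 above (9.59% and 7.86% of all genes). Kdr, the VEGF receptor of endothelium, was at 1.24 to 2.04 in control and 1.04 and 1.13 in cKO (-0.48). Cldn5, a tight junction protein, was at 11.4 to 13.9 and at 9.21 and 10.5 (-0.30). None of the 4 passed the test.

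Genes that follow neuronal activity had small differences for the most part. Of 19 tested immediate early genes 0 were called (2 at an unadjusted p under 0.05), and the median was 0.07. Fos was at 3.51, 5.03, 5.67 and 7.37 scaled TPM in control and 6.27 and 8.43 in cKO, and Arc at 3.69 to 6.99 and at 6.82 and 7.13. Both overlapped. Dusp6, a phosphatase that acts on ERK, lay below all controls, at 10.3 to 13.1 and at 8.39 and 9.63 (-0.34, adjusted p = 0.222, limma). Of 18 secondary activity genes the median was -0.14. In this list 1 lay above all controls (Cartpt) and 3 below (Inhba, Crem and Gpr3), against 7.86% and 9.59% of all genes. Inhba, an activin subunit, was at 0.822 to 1.43 in control and 0.461 and 0.573 in cKO (-0.62, adjusted p = 0.299, limma).

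Among 18 genes that glucocorticoids induce, 14 were above 0 and 4 lay above all controls (7.86% of all genes), with a median of 0.13. Sgk1, a kinase, was at 14.14, 19.17, 13.98 and 24.61 in control and 31.67 and 29.37 in cKO (0.79, standard error 0.21, adjusted p = 0.222, limma). Of 79 nuclear-encoded subunits of the respiratory chain, 24 were above 0. In this list 13 lay below all controls and 2 above (9.59% and 7.86% of all genes). The median was -0.04 (0.00 with quantile normalization) and 0 were called (11 at an unadjusted p under 0.05). Uqcrfs1, the Rieske protein of complex III, was at 50.8 to 52.7 in control and 45.8 and 44.8 in cKO (-0.19). Of 82 ribosomal protein genes 10 lay below and 2 above (9.59% and 7.86% of all genes). Their median was -0.02 (0.01 with TPM as deposited and 0.005 with quantile normalization).

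**Figure D4:**
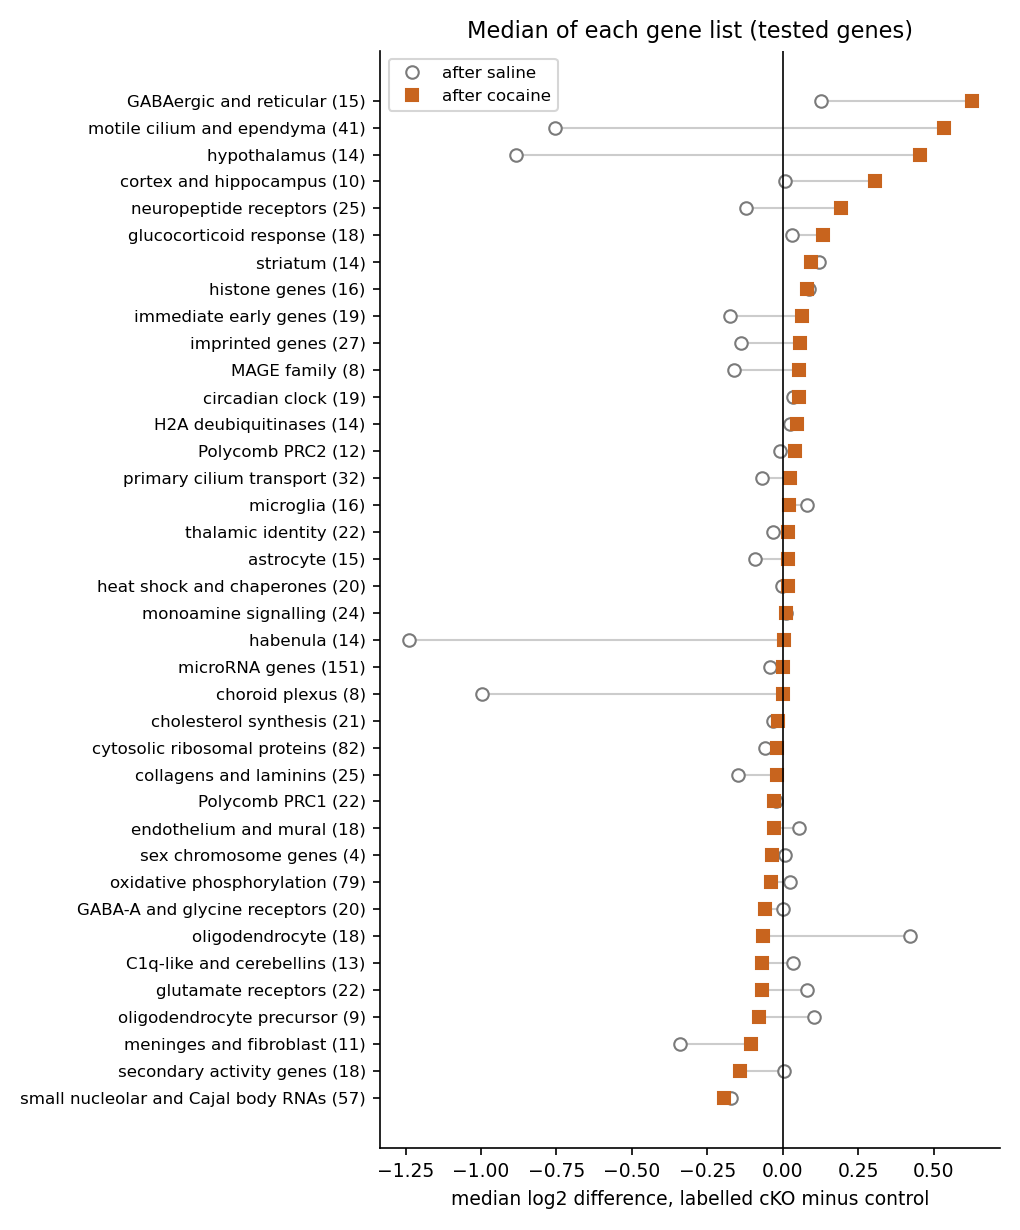
Median log2 difference, labelled cKO minus control, of the tested genes of each list (number in parentheses) after cocaine (squares) and after saline (circles). After cocaine the medians run from -0.19 (small nucleolar and Cajal body RNAs) to 0.63 (GABAergic and reticular genes), and ciliary (0.54 and -0.75) and hypothalamic (0.46 and -0.88) lists lie on opposite sides of 0 in the 2 treatments.

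The same labels were also compared after saline, in libraries that share none with the cocaine comparison. There, 24 genes had an adjusted p under 0.05 (0.178% of those tested). In the cocaine libraries 21 of these 24 differed in the opposite direction, while 57.8% of all tested genes had opposite signs. Of the 21, 15 did so without overlap between the groups. Among all tested genes 7.86% lay above all controls and 9.59% below. Of the 15 lower in labelled cKO after saline, 13 were above 0 after cocaine (median 0.26), and of the 9 higher, 8 were below 0 (median -0.11). Pcsk1n, which encodes proSAAS, an inhibitor of a prohormone convertase, was at 169, 191, 182 and 189 scaled TPM in control cocaine and 217 and 227 in cKO cocaine (0.28, against -0.39 after saline). Prag1, a pseudokinase, was at 6.57 to 7.17 and at 9.40 and 10.2 (0.48, against -0.42). Gria3, an AMPA receptor subunit, was at 16.1, 18.0, 17.3 and 17.6 in control and 14.4 and 15.2 in cKO (-0.21, against 0.40). The exceptions were Bex1 (-0.003, against -0.45), P4htm (-0.06, against -0.18) and Kctd16 (0.002, against 0.44).

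**Figure D5:**
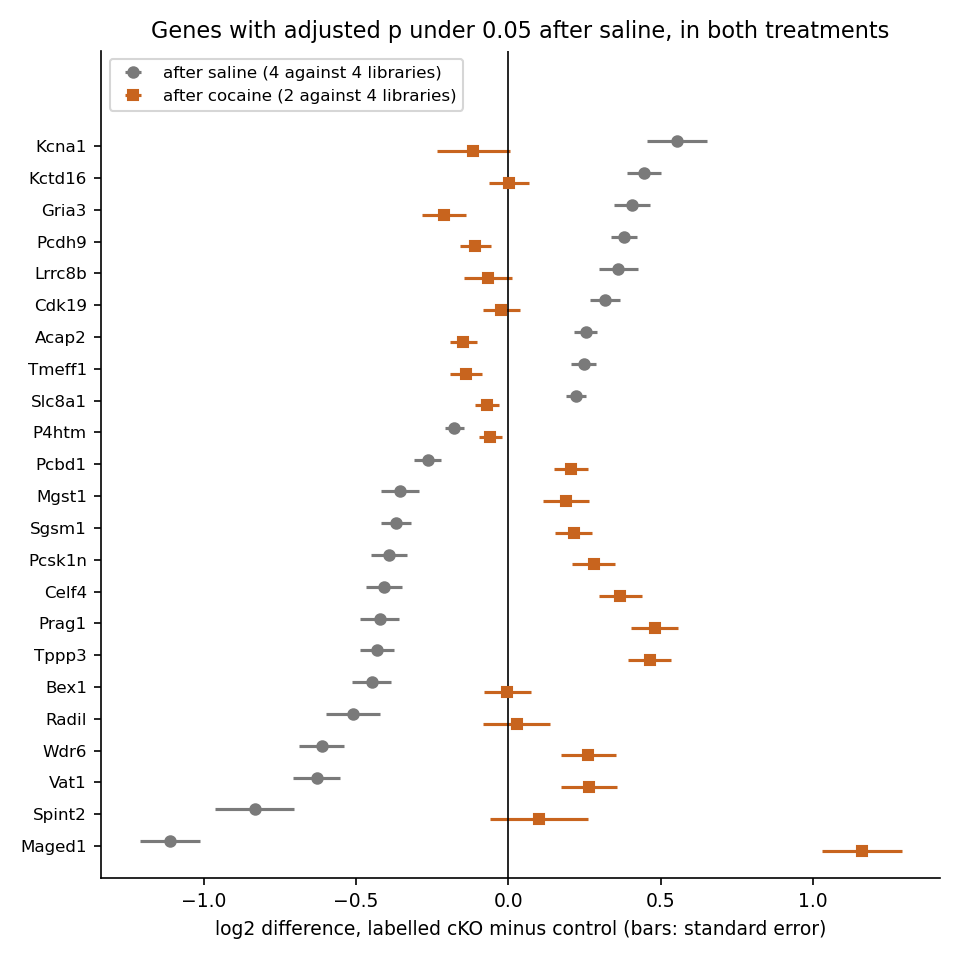
Log2 difference, labelled cKO minus control (horizontal axis; bars, standard error), for 23 genes with an adjusted p under 0.05 after saline, shown after saline (circles) and after cocaine (squares). Oxt is left out of the plot for its size (-5.07 after saline, 5.34 after cocaine); Maged1, at -1.11 and 1.16, has the widest separation of those shown, and the squares lie across 0 from the circles for 20 genes.

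The difference between the labelled genotypes was tested against that after saline in one model. It was called higher after cocaine for 66 genes (0.49%) and lower for 42 (0.312%). All 108 of these had opposite signs after cocaine and after saline, Maged1 included. Since Maged1 ran opposite to the labels after cocaine, these calls rest on the labels as given, whose correctness was not tested. Maged1, Tppp3 and Snora5c had the smallest adjusted p-values (5.53e-05, 0.00148 and 0.00214, limma). Of the hypothalamic list 5 members (Oxt, Avp, Trh, Cartpt and Gal) and of the ciliary list 3 were among those called higher, and 0 of either list were called lower. When the saline libraries were grouped by their genotype tags in place of titles, which mixes high and low Maged1 libraries, 1 gene was called. Leaving out 1 library gave 25 (without cKO cocaine replicate 1) to 212 calls (without control cocaine replicate 1).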

How the data were processed

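The authors sequenced ribosomal RNA-depleted, stranded libraries of whole thalamus as paired reads, mapped them to GRCm38 with STAR 2.5.3a (submitters' processing notes), quantified them with salmon and summarized them per gene with tximport. The deposited files hold 1 column of TPM per library, summing to 317646 to 377401 over the listed genes in the 6 cocaine libraries, with no counts, so depth and counting error are unknown. In 2 deposited tables, recorded as unit other, the TPM carry a decimal comma, read here as a decimal point. Groups follow the sample titles. One column of TPM was used per library.

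TPM were divided by unweighted TMM factors (30% of log ratios and 5% of mean values trimmed; 0.807 to 0.939 in cocaine and 1.07 to 1.22 in saline libraries), 0.5 was added and log2 taken. Genes reaching 1 TPM in 3 or more of 14 libraries (13471 of 25080) entered limma 3.58.1 (R 4.3.3), a means model of 4 groups with an intensity trend. P-values measure the spread between these mice. The procedure was tested on simulated data. Coordinates are from GENCODE M21. Other steps used Python 3.11.15, numpy 2.4.6, pandas 2.3.3 and scipy 1.17.1.

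Members, gene lists and tests were chosen with earlier results of these data known, so lists are described by counts and medians only. A list's mitochondrially encoded genes were not in the tables used here. Named genes are Maged1, Usp7, Slc17a6, C1ql3, the called genes with the largest differences and no overlap between groups (up to 10 rises and 10 falls of at least 5 scaled TPM, and 3 each of microRNA, snoRNA, scaRNA, Gm or Rik symbols), the 5 smallest adjusted p-values, the 3 smallest of the interaction, and list members. Genes close to the threshold, genes called in other fits, examples from lists beyond their called and first members, and examples of the saline comparison were chosen after their values were seen. Alternatives were other scalings, pseudocounts, filters, library sets, the genotype tags, a replicate block, no trend, no fold minimum, and removal of GC content and length trends. One result is not reported here.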

Additional observations from a re-analysis of the deposited data

Results flagged for a closer look

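The difference between labelled cKO and control after cocaine differed from that after saline by an interaction test (limma, adjusted p under 0.05) in 13 of the 16 genes followed most closely. On the log2 scale, cocaine difference minus saline difference, it was higher for Oxt (10.4), Avp (4.69), Cartpt (4.11), Maged1 (2.28), Trh (2.22), Thbs2 (1.12) and Tppp3 (0.90). It was lower for Snora5c (-7.86), Snora3 (-5.27), Nab2 (-0.82), Efna3 (-0.77), 1500009L16Rik (-0.51) and Hint3 (-0.47). Values for the 2 snoRNAs and Oxt depend on the pseudocount, since whole groups of libraries are at or near 0. Most of the 16 genes were chosen for their difference after cocaine, which is part of this contrast. The choice itself thus raised the share of them that passed. Over all tested genes 0.49% were called higher and 0.312% lower with the fold minimum.

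Among the 4 libraries labelled control cocaine, 1 library lay far from the others (Dixon's ratio past its 95% critical value) in 3 of 54 values checked, where chance gives about 1 in 20. For Oxt the ratio was 1.0 (replicate 3 at 0.233 scaled TPM, the others at 0), for Avp 0.84 (replicate 3 at 2.12) and for the mean level of the sex chromosome genes 0.888 (replicate 1 high). With the others at 0, any Oxt value above 0 gives a ratio of 1.0, so this flag says nothing about its size. Groups of 2 could not be checked in this way.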

How the results depend on the processing

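The cocaine comparison rests on 2 libraries labelled cKO, and its counts moved with many of the choices. The number called lower stayed at 3 with median-of-ratios scaling, quantile normalization, a pseudocount of 1, a mean of at least 5 TPM or no trend. With a mean of at least 5 TPM, Efna3 took the place of Nab2 among the 3. The number called lower fell to 2 with TPM as deposited, the 6 cocaine libraries alone or the genotype tags. It rose to 4 with a pseudocount of 0.1. The 2 genes called higher became 1 with TPM as deposited, median-of-ratios scaling, quantile normalization, a mean of at least 5 TPM or the replicate block, 4 with a pseudocount of 0.1, 11 with no filter on low values, 8 with the 6 cocaine libraries alone and 0 with the genotype tags, and 0 to 4 when 1 library was left out. The 3 called lower became 6 with no filter, 1 with the replicate block, 5 with GC content and length trends removed or no fold minimum, and 0 to 8 when 1 library was left out. Without cKO replicate 2, 0 genes were called (limma), with 1448 at an unadjusted p under 0.05. The 108 interaction calls became 17 with TPM as deposited, 27 with the replicate block, 1 with the genotype tags, 173 with no fold minimum and 25 to 212 when 1 library was left out (212 without control cocaine replicate 1, 25 without cKO cocaine replicate 1). The cause of these moves was not tested.

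Maged1 kept its direction under all 26 alternatives (1.06 to 1.25) and missed the threshold under 3, with an adjusted p of 0.156 in the 6 cocaine libraries alone (1.17), 0.427 with the genotype tags (1.16) and 0.0822 without cKO replicate 2 (1.07). Snora5c was called in 25 of 26, Snora3 in 23 of 26, Nab2 in 17 of 25 and Thbs2 in 6 of 25. None of the 16 genes refitted under each alternative changed direction. The habenular median ran from -0.58 to 0.42 when 1 library was left out, and the ciliary one from 0.34 to 0.75. Without control replicate 1, an alternative added after seeing the data, the ciliary genes above the controls went from 11 to 34.

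Replicate numbers 1 and 2 occur in both cocaine groups. The deviations of same-numbered libraries from their group means had correlations of 0.072 and 0.023. With 2 cKO libraries, the deviations of 1 mirror those of the other, so the 2 correlations are not separate checks. Whether same-numbered libraries were paired cannot be told from them. An arm left with 1 library was assumed to vary like the other groups. Depth could not be assessed from TPM.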
